A study of Mus musculus with 6 samples.

Results

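Aminoacyl-tRNA synthetases are the enzymes that attach each amino acid to its transfer RNA (tRNA), the step that supplies charged tRNAs to the ribosome. Mammalian cells encode in their nucleus a set of these enzymes for the cytosol and a largely separate set that is imported into mitochondria to serve the small mitochondrial translation system. Many genes of the cytosolic set are known targets of ATF4, the transcription factor of the amino acid response and the integrated stress response. The genes were taken from a list of 36 synthetase symbols, 20 for cytosolic enzymes and 16, with symbols ending in 2, for mitochondrial ones. A gene was kept where a probe set of the array mapped to its symbol alone, and it was represented by its brightest probe set over all 6 arrays. This gave 34 genes of the 18193 genes measured, 18 cytosolic and 16 mitochondrial. The cytosolic enzymes for aspartate (Dars) and methionine (Mars) had no probe set under their symbol and were not analysed here. Gars and Kars, counted as cytosolic, are known to encode the mitochondrial enzymes for glycine and lysine as well.

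The livers came from male mice of 10 weeks, 3 with the genotype L Pex5 -/- (KO) and 3 labelled WT, and each gave 1 Affymetrix mouse array of total RNA. Pex5 is the receptor that brings enzymes into peroxisomes, and the L marks the liver knockout. Both groups are labelled with the mixed background Alb-Cre Tac:[Sw]fBR. Alb-Cre is a recombinase driven by the promoter of the hepatocyte gene albumin, so the loss of Pex5 is aimed at hepatocytes. Whether other liver cells kept Pex5 was not measured. Levels are on the log2 scale of RMA and every difference is KO minus WT. An error beside a level is the SD of 3 livers, and one beside the difference of a gene is the SE from limma, which was run over all 18193 genes. For a pair of genes the SE was taken from the 3 KO and 3 WT arrays alone, without limma. A gene is said to have risen or fallen where the adjusted p was under 0.05 (Benjamini-Hochberg over all genes). The levels are relative, since RMA pulls the arrays to one distribution. Levels of different genes are not compared, since each probe set has its own brightness.

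Some facts of the whole series bear on these values. Across all genes the lowest correlation between arrays of the same group was 0.989, and the highest between a KO and a WT array was 0.976. The median difference over all genes was -0.05. If 16 spiked bacterial control probe sets, which averaged 9.92 on KO and 10.3 on WT arrays, are used to scale the arrays instead, each difference is 0.39 higher and the median over all genes is 0.33. Pex5 itself stood at 9.22 ± 0.11 in KO and 9.04 ± 0.14 in WT livers (limma adjusted p = 0.262), and whether its probe set lies in the deleted part is not given in the sources used here. All 6 hepatocyte markers were above background on every array, and their summed level ran from 16.57 to 16.63 on KO and from 16.64 to 16.69 on WT arrays (log2 of the sum over 6 genes, of which Apoc3 fell). For 6 macrophage markers, none of which passed the test, the sums ran from 11.48 to 11.88 in KO and from 11.14 to 12.26 in WT livers. For 3 lymphocyte markers, again with no call, they ran from 8.11 to 8.67 and from 7.70 to 8.78 in KO and WT livers. In the endothelial list of 5 genes Lyve1 rose and Kdr fell, with sums from 9.67 to 9.89 in KO and from 9.84 to 10.19 in WT livers. Lyve1 lay below background in WT livers, so its rise has no exact size. Of 5 stellate cell genes Dcn fell, with sums from 11.13 to 11.27 in KO and from 11.35 to 11.55 in WT livers. Of 4 cholangiocyte markers Krt19 fell, with sums from 6.97 to 7.09 in KO and from 7.17 to 7.46 in WT livers. Krt19 lay below background in KO livers, so its fall has no exact size, and Krt7 lay below background in both groups. The part of cell composition in the synthetase values was not tested, and in these bulk samples fewer cells of a type and less RNA per cell cannot be told apart.

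Cytosolic synthetase transcripts were higher in KO livers for a subset of the enzymes and lower for none. Of the 18 genes, 6 rose (33.3%) and 0 fell, while 24% of all genes passed, 14.2% as higher and 9.75% as lower. Among the 12138 genes above background on at least 3 arrays, the shares were 21.9% and 13.3%. The 6 risen genes were Gars, Sars, Eprs, Rars, Lars and Iars, with rises of 1.57-fold to 2.55-fold. At an unadjusted p under 0.05 limma gave 10 higher and 0 lower genes, against 20% and 18.5% of all genes. Scaled to the bacterial controls, 16 of the 18 were higher and 0 lower, as were 8610 and 524 of all genes, against 2589 and 1774 without that scaling. The median difference of the 18 genes was 0.29. In 12 of them all KO arrays lay above all WT arrays, and in 0 all lay below, against 22.1% and 22.6% of all genes.

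Gars, which charges glycine, had levels of 10.22, 10.37 and 10.12 in KO livers, against 8.85, 9.04 and 8.76 in WT livers. Every KO liver lay more than 1 log2 unit above every WT liver, and the rise was 2.55-fold (1.35 ± 0.11 SE, limma adjusted p = 0.000165). Sars, the serine enzyme, stood at 10.17, 10.39 and 10.11 in KO livers, against 9.12, 9.06 and 9.09 in WT livers. The WT livers were within 0.06 of each other and the groups did not overlap, with a rise of 2.20-fold (1.14 ± 0.10, limma adjusted p = 0.000251). A second Sars probe set rose by 1.25.

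The next 4 belong, in the cell, to the multisynthetase complex, an assembly of synthetases held together by scaffold proteins. Eprs, a fused enzyme for glutamate and proline, had 10.26, 10.20 and 10.22 in KO livers, against 9.51, 9.24 and 9.31 in WT livers, a rise of 1.83-fold (0.88 ± 0.10, limma adjusted p = 0.000769). Its KO values were nearly equal and lay above all WT values. Rars, for arginine, had 9.44, 9.43 and 9.31 in KO livers, against 8.67, 8.65 and 8.77 in WT livers (1.62-fold higher, 0.70 ± 0.09, limma adjusted p = 0.00142). Lars, for leucine, had 9.21, 9.36 and 9.10 in KO livers, against 8.74, 8.53 and 8.34 in WT livers (1.61-fold higher, 0.69 ± 0.13, limma adjusted p = 0.00711). Lars had the wider spread in WT livers, and the groups did not overlap in either gene. Iars, for isoleucine, had 9.78, 9.84 and 9.57 in KO livers, against 9.14, 9.04 and 9.05 in WT livers (1.57-fold higher, 0.65 ± 0.10, limma adjusted p = 0.00314). Another Iars probe set rose by 0.83, and the 3 Eprs probe sets above background rose by 0.69 to 0.88 in a fit over all probe sets.

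**Figure D1:**
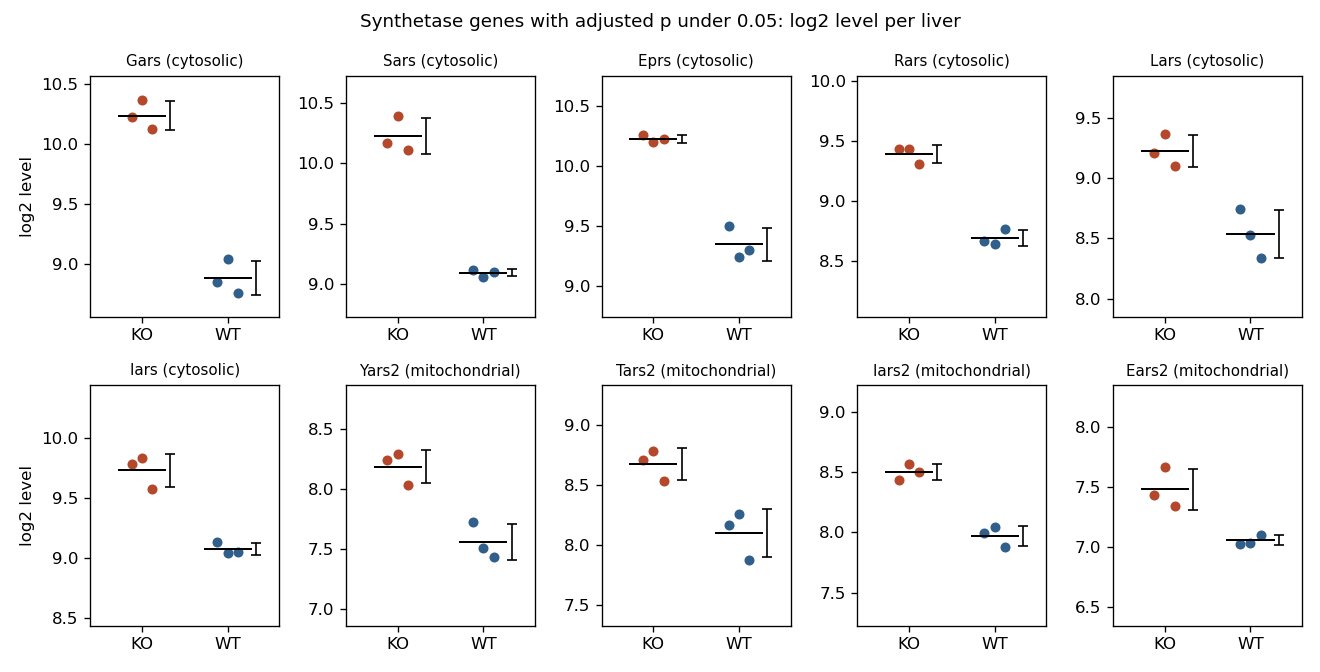
Log2 level of the 10 synthetase genes that rose, in each KO liver (red) and each WT liver (blue), with the group mean as a line and the SD over 3 livers as the bar beside it. Each panel spans 2 log2 units. In all 10 genes the 3 KO livers lie above the 3 WT livers, by the widest margin in Gars and Sars.

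The other 12 cytosolic genes did not pass, and 10 of them had a positive difference. Vars (valine) differed by 0.36 ± 0.13, Cars (cysteine) by 0.34 ± 0.17 and Farsb, the beta subunit of the phenylalanine enzyme, by 0.31 ± 0.11. Wars (tryptophan) differed by 0.27 ± 0.12, Nars (asparagine) by 0.23 ± 0.10 and Farsa, the alpha subunit, by 0.23 ± 0.09. Aars (alanine) differed by 0.18 ± 0.09, Yars (tyrosine) by 0.16 ± 0.11 and Kars (lysine) by 0.13 ± 0.08. In 6 of these 12 genes the KO arrays lay above all WT arrays although the test did not pass, namely Vars, Farsb, Nars, Farsa, Aars and Kars. Nars had a further probe set that differed by 0.50 and passed when all probe sets were tested (limma adjusted p = 0.00708). In Farsb the 2 next probe sets differed by 0.38 and 0.14. The Wars and Cars differences are less firm. The other Wars probe sets, all above background, differed by 0.0059, -0.0082 and 0.0096. A second Cars probe set above background differed by -0.17.

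Hars, the histidine enzyme, showed the smallest difference among the cytosolic genes. It had 9.03, 9.04 and 9.05 in KO livers, against 9.01, 8.97 and 9.05 in WT livers, a difference of 0.03 with a 95% interval from -0.16 to 0.22. Qars (glutamine), a member of the multisynthetase complex, differed by -0.10 ± 0.11, and its 3 probe sets above background gave -0.16, -0.10 and 0.12. Tars (threonine) had 10.08, 10.04 and 9.49 in KO livers, against 10.82, 9.79 and 9.84 in WT livers. Its groups overlapped and its spread was the widest among the cytosolic genes, with WT liver 1 about 1 log2 unit above the other WT livers. The difference was -0.28 ± 0.28 (limma adjusted p = 0.492), and 0.05 without WT liver 1. Cars showed the same liver on top, with 8.57, 8.35 and 8.32 in KO livers, against 8.46, 7.94 and 7.83 in WT livers. Without WT liver 1 Cars passed as higher (0.53, limma adjusted p = 0.0205). Over all 34 synthetase genes WT liver 1 held the highest WT value in 16 and KO liver 3 the lowest KO value in 22.

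Of the 6 measured synthetases of the multisynthetase complex 4 rose (66.7%). Of the 12 cytosolic synthetases outside it 2 rose (16.7%), Gars and Sars. The second share is near the 14.2% of all genes and the 21.9% of genes above background. The medians were 0.67 and 0.25, and the difference between these subsets was not tested. Cytosolic class I enzymes, which share a fold of the catalytic domain, rose in 3 of 8 (37.5%, median 0.35). Class II enzymes, which share another fold, rose in 2 of 9 (median 0.23), and Eprs holds both folds. The class II share (22.2%) is near the 21.9% of genes above background that rose, and the classes were not tested against each other. The transcripts of the scaffold proteins of the complex were higher too, since all 3 rose. Aimp1 had 9.05, 9.05 and 9.12 in KO livers, against 8.43, 8.49 and 8.54 in WT livers, with no overlap (0.59 ± 0.09, limma adjusted p = 0.00247). Eef1e1 was higher by 0.46 ± 0.14 (limma adjusted p = 0.0419) and Aimp2 by 0.34 ± 0.11 at the edge of the threshold (limma adjusted p = 0.0499). The calls of Eef1e1 and Aimp2 were lost in 8 and 10 of 17 alternatives. Each single array left out took the call from at least 1 of these 2 genes, leaving 1 or 2 of the 3 scaffold genes called, and Aimp1 passed in all 17.

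Mitochondrial synthetase transcripts were higher in KO livers for 4 enzymes, and the median difference of the set was near 0. Of the 16 genes 4 rose (25%), against 14.2% of all genes and 21.9% of those above background, and 0 fell, against 9.75% and 13.3%. The share that rose is thus near that of genes above background. At an unadjusted p under 0.05 limma gave 6 higher genes, Mars2 below background among them, and 4 lower, against 20% and 18.5% of all genes. The share of lower genes is thus near that of all genes. Of the 16, scaled to the bacterial controls 11 were higher, Mars2 among them, and 0 lower. Over all 18193 genes 8610 were higher and 524 lower with that scaling. The median of the 16 genes was 0.06 in the main fit. It was -0.03 with quantile normalization, -0.01 without WT liver 3 and 0.187 without WT liver 1. The KO arrays lay above all WT arrays in 5 genes, again with Mars2, and below all of them in 4, which is near the 22.1% and 22.6% of all genes.

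The risen genes were Yars2, Tars2, Iars2 and Ears2, which charge tyrosine, threonine, isoleucine and glutamate in mitochondria. Yars2 had 8.24, 8.29 and 8.03 in KO livers, against 7.72, 7.51 and 7.44 in WT livers (1.55-fold higher, 0.63 ± 0.12, limma adjusted p = 0.00685). Tars2 had 8.70, 8.79 and 8.53 in KO livers, against 8.17, 8.26 and 7.88 in WT livers (1.49-fold higher, 0.57 ± 0.13, limma adjusted p = 0.0149). Iars2 had 8.435, 8.572 and 8.504 in KO livers, against 7.999, 8.042 and 7.881 in WT livers (1.44-fold higher, 0.53 ± 0.09, limma adjusted p = 0.00526). No KO liver fell within the WT range in these genes, and second probe sets of Yars2 and Tars2 rose by 0.58 and 0.60. A second Iars2 probe set, which was not above background on all arrays, differed by 0.25 and did not pass (limma adjusted p = 0.0987). Tars2 lost its call without KO liver 1 (limma adjusted p = 0.0585) or KO liver 2 (0.0647).

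Ears2 had 7.44, 7.67 and 7.34 in KO livers, against 7.03, 7.04 and 7.11 in WT livers (1.34-fold higher, 0.42 ± 0.11, limma adjusted p = 0.0253). This was the least firm of the 4 calls, since its other probe sets differed by -0.20, 0.04 and 0.00, and the mean of its probe sets by 0.07. Its call was also lost with quantile normalization (limma adjusted p = 0.109), without KO liver 1 or 2 (0.0702 and 0.086) and without WT liver 1 or 2 (0.0568 and 0.0644).

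Aars2, Sars2, Nars2 and Cars2, for alanine, serine, asparagine and cysteine, had all KO livers below all WT livers without passing the test. Aars2 had 7.10, 6.99 and 7.10 in KO livers, against 7.31, 7.39 and 7.34 in WT livers (-0.28 ± 0.09, limma adjusted p = 0.0504). Sars2 had 6.623, 6.653 and 6.676 in KO livers, against 6.938, 6.853 and 7.003 in WT livers (-0.28 ± 0.09, limma adjusted p = 0.0507). Both sit just above the threshold. Nars2 differed by -0.39 ± 0.13 (limma adjusted p = 0.0642) and Cars2 by -0.49 ± 0.17 (limma adjusted p = 0.0738), with all 3 Cars2 probe sets negative, at -0.30 to -0.49. Each of the 4 passed as lower under 3 to 5 of 17 alternatives, among them the mean of the probe sets of a gene. Aars2 and Sars2 have only 1 probe set each, so their differences were unchanged there and only the fit over the other genes differed. Scaled to the bacterial controls Aars2 and Sars2 turned to 0.11, while Nars2 stood at -0.0018 and Cars2 at -0.10.

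The other 8 mitochondrial genes showed no call. Wars2 (tryptophan) differed by 0.36 ± 0.15, Rars2 (arginine) by 0.18 ± 0.14 and Lars2 (leucine) by 0.10 ± 0.14. Pars2 (proline) differed by 0.03, Hars2 (histidine) by 0.02, Fars2 (phenylalanine) by -0.02 and Vars2 (valine) by -0.02, with 95% intervals no wider than -0.32 to 0.38. Fars2 is uncertain, because another of its probe sets rose by 0.70 (limma adjusted p = 0.0207). Mars2 (methionine) lay below background in all 6 livers, where background is the 95th percentile of 39 olfactory receptor genes (4.90), so its difference of 0.43 has no size here. Class I mitochondrial enzymes rose in 3 of 9 (33.3%) and class II enzymes in 1 of 7 (14.3%), with no test between the classes. Of all genes 14.2% rose, which is near the class II share, and of genes above background 21.9% rose.

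**Figure D2:**
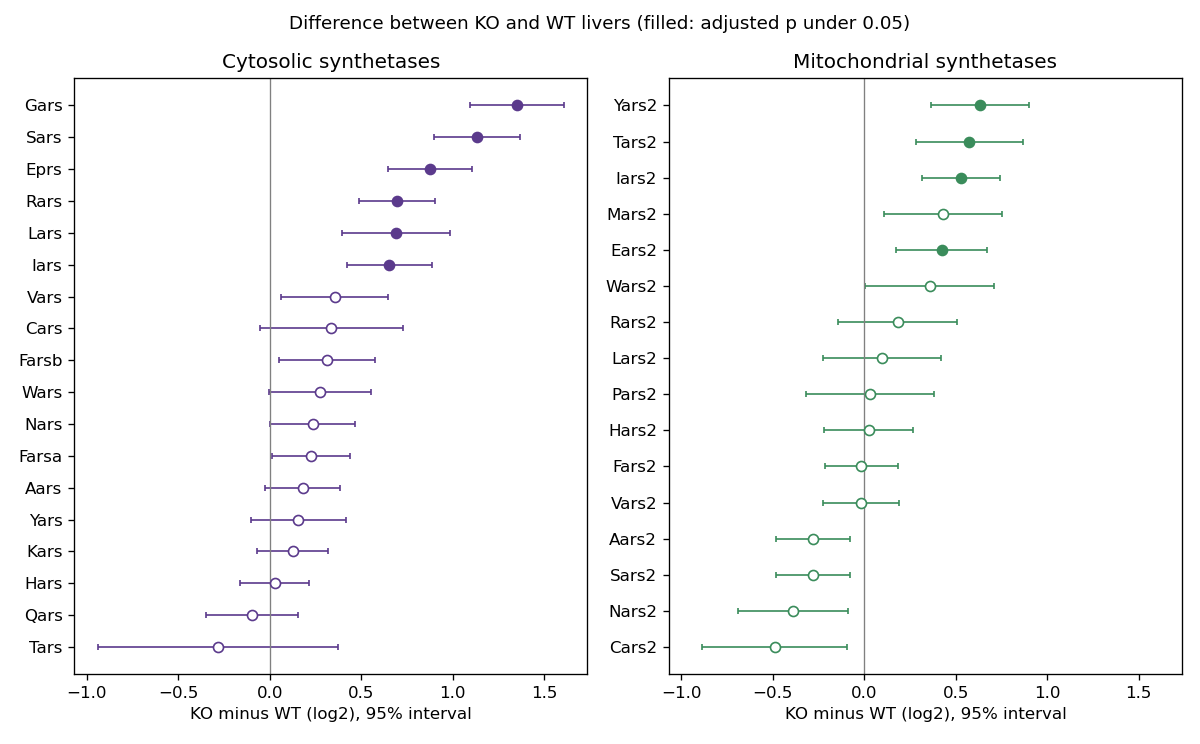
KO minus WT difference (log2) of each cytosolic synthetase (left) and each mitochondrial one (right), with the 95% interval of the fit over all genes, filled where the adjusted p was under 0.05. The 6 filled cytosolic points stand above all others on the left, Mars2 is an open point among the 4 filled mitochondrial ones, and the intervals of Aars2, Sars2, Nars2 and Cars2 lie below 0 without passing after adjustment.

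Taking all 71 probe sets of the 34 genes in place of 1 per gene, 18 were higher and 1 lower in a fit over all probe sets with 1 symbol, of which 11.9% were higher and 7.93% lower. Of 39 cytosolic probe sets 11 were higher and 0 lower, and of 32 mitochondrial ones 7 were higher and 1 lower. The lower probe set belonged to Nars2 and its mean was below background in both groups. Among the probe sets above background on all arrays, 29 cytosolic ones had a positive and 5 a negative difference, against 14 and 10 of the mitochondrial ones.

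The compartments were next set against each other for the same amino acid. In each array the level of the mitochondrial gene was subtracted from that of the cytosolic gene, and the KO minus WT difference of this value was taken. A constant shift of a whole array drops out of this value, but a scaling that depends on brightness does not. With quantile normalization, for example, the difference of Aars went from 0.18 to 0.16 and that of Aars2 from -0.28 to -0.41. With 16 pairs (Eprs and Fars2 each serving in 2), the cytosolic gene had the larger KO minus WT difference in 13 and the mitochondrial gene in 3. The 2 pairs with Fars2, both among the 13, rest on its brightest probe set. The other Fars2 probe set rose by 0.70, more than Farsa or Farsb differed. In 10 pairs the KO arrays lay above all WT arrays in this value, in 2 they lay below, and in 4 the groups overlapped. Of all single genes 22.1% lay above and 22.6% below in this way. No such share was taken over pairs of other genes, so these counts have no base to be read against. An exact two-sided permutation test of 3 against 3 arrays cannot go below p = 0.1, which the 12 pairs without overlap reached, and adjusted over the 16 pairs this was 0.133. No pair could therefore pass a threshold of 0.05.

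The widest gap was that between the serine enzymes, where Sars minus Sars2 was higher in KO livers by 1.42 ± 0.10 (SE of the pair, not from limma). Eprs minus Pars2 was higher by 0.84 ± 0.12, Cars minus Cars2 by 0.83 ± 0.29 and Nars minus Nars2 by 0.62 ± 0.16. For leucine the value was 0.59 ± 0.12, for arginine 0.52 ± 0.19 and for alanine 0.46 ± 0.07. In the serine, alanine, asparagine and cysteine pairs the cytosolic difference was positive and the mitochondrial one negative, and only Sars of these 8 genes passed by itself. The isoleucine enzymes rose in both compartments, with a gap of 0.12 ± 0.10 and overlapping groups. The histidine enzymes, encoded by neighbouring genes whose annotated ends overlap by 4 bases, both showed differences near 0 and a gap of 0.0034 ± 0.12.

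The order was turned in threonine and tyrosine. Yars minus Yars2 was -0.47 ± 0.06 and Tars minus Tars2 -0.86 ± 0.35, and in both pairs all KO arrays lay below all WT arrays. In these pairs the mitochondrial gene rose and the cytosolic gene did not pass. The Tars value carries the high WT liver 1 described above.

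**Figure D3:**
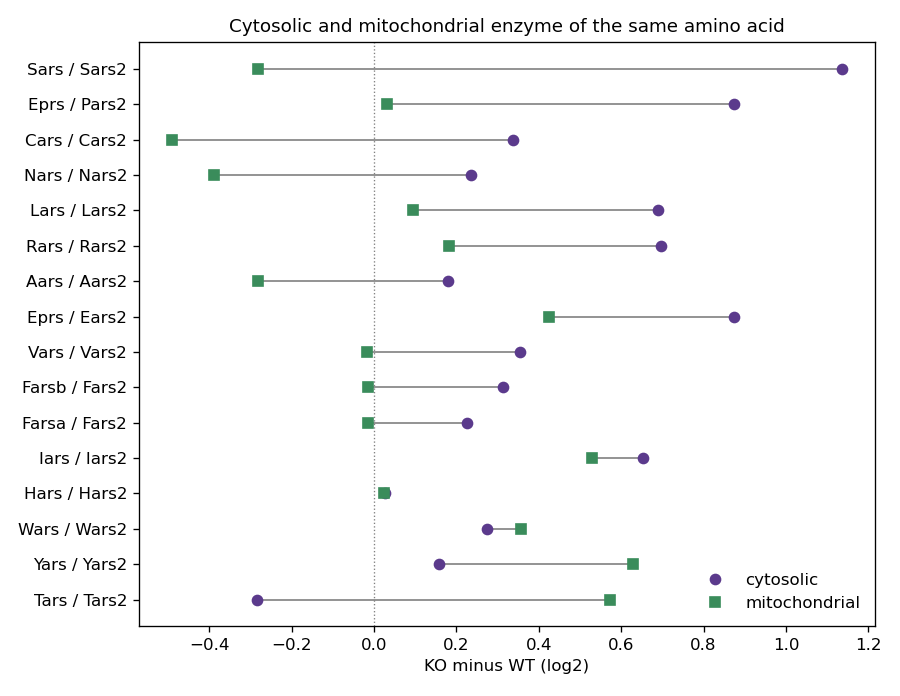
KO minus WT difference (log2) of the cytosolic gene (circle) and of the mitochondrial gene for the same amino acid (square), joined by a line for each of 16 pairs, ordered by the gap. The circle lies right of the square in 13 pairs, widest for Sars and Sars2, and left of it in Wars, Yars and Tars.

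The promoters of the members were searched for TGATGNAA, a core of the C/EBP-ATF response element that ATF4 is known to bind, on both strands (TTNCATCA on the other). Windows ran from 250 bases before to 50 after the start site, with RefSeq sequence of the mouse build GRCm38.p6, and 25 of the 34 genes had one. The letters stood in 5 of 11 cytosolic windows (45.5%) and in 0 of 14 mitochondrial ones, against 4.51% of all 27025 genes with a window. Of the 8 risen genes with a window 2 held them, Gars and Iars, as did 3 of the 17 without a call, Aars, Tars and Yars. The stretches that hold the letters are given 5′ to 3′ on the strand of the gene with the match in capitals, because they are shared by genes that rose and genes that did not.
Gars (chr6:55037911-55037990, plus strand, match beginning 30 bases before the start site): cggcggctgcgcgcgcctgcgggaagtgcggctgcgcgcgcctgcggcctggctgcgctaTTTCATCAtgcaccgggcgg
Iars (chr13:49682077-49682156, plus strand, match beginning 7 bases after the start site): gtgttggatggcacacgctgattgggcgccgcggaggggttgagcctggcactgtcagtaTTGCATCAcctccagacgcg
Tars (chr15:11399654-11399733, minus strand, match beginning 15 bases before the start site): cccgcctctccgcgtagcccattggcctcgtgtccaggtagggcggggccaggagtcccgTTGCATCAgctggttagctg
Yars (chr4:129189846-129189925, plus strand, match beginning 3 bases after the start site): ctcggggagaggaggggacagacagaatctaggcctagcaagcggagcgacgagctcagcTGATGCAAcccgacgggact
Aars (chr8:111033670-111033870, plus strand, matches beginning 112 bases before and 9 after the start site): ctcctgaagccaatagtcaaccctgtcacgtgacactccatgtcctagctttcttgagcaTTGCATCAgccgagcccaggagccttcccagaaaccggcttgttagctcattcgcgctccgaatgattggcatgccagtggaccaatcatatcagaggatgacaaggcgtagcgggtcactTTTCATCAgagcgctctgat
The letters TTGCATCA occur in Iars, Tars and Aars, and those of Yars are the same run read on the other strand. Sars and Eprs, which rose, hold no match in their windows. A match describes the letters only, and nothing about binding was measured.

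Genes of the amino acid response, a list that holds known ATF4 targets together with Atf4, were higher in 15 of 22 (68.2%) and lower in 1, with a median of 1.22, while 14.2% of all genes were higher and 9.75% lower. Among its higher genes were the pseudokinase gene Trib3, the hormone gene Fgf21, Nupr1, a stress-induced nuclear protein, and Psat1, which makes phosphoserine. Nupr1 stood at 11.67 ± 0.50 in KO and 4.90 ± 0.21 in WT livers, and Psat1 at 9.51 ± 0.66 in KO and 4.18 ± 0.16 in WT livers. The WT level of Nupr1 was at the background of 4.90 and that of Psat1 below it, so neither difference has an exact size. The 1 lower gene was Shmt2, the mitochondrial serine hydroxymethyltransferase, which fell by 0.95 on the log2 scale and is named after its value was seen. Atf4, likewise named afterwards, was higher by 0.79 ± 0.14 (limma adjusted p = 0.00533). Asns, which makes asparagine and was also named afterwards, had 10.23, 10.25 and 10.17 in KO livers, against 8.74, 9.47 and 5.70 in WT livers, and did not pass (limma adjusted p = 0.0835). The WT livers thus differed among themselves in Asns by more than they differed in any synthetase gene.

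Genes for the export and maturation of tRNA were higher in 6 of 13 (46.2%) and lower in 2 (15.4%), with a median of 0.43. Among all genes above background 21.9% were higher and 13.3% lower, so the lower share is near that of other genes. Xpot, the carrier that exports tRNA from the nucleus, had 10.52, 10.78 and 10.49 in KO livers, against 9.72, 9.70 and 9.65 in WT livers, a rise of 1.87-fold (0.91 ± 0.10, limma adjusted p = 0.000817). The pseudouridine synthase Pus1 rose 1.48-fold (0.57 ± 0.09). Tsen34, a subunit of the tRNA splicing endonuclease, fell by 0.66 and Elac1, a tRNA 3′ processing enzyme, fell by 0.61 on the log2 scale. Scaled to the bacterial controls neither fall passed, and Tsen34 stood at -0.28 or below and Elac1 at -0.12 or below in all 17 alternatives. Without KO liver 1, KO liver 2 or WT liver 2, 4 of the 13 were called higher.

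Genes of the translation machinery beside the synthetases were tested in the same fit. Of 6 genes of cytosolic elongation 1 rose, Eef1b2, a subunit of the exchange factor of the carrier of charged tRNA (0.45 ± 0.11). In the same list 1 fell, Eef2k, the kinase of elongation factor 2 (-0.56 ± 0.13). Each is 16.7% of the list, while 21.9% of genes above background rose and 13.3% fell, so both shares are near those of other genes. The call of Eef1b2 was lost in 4 and that of Eef2k in 5 of 17 alternatives. Of 9 mitochondrial translation factors 0 passed limma, with 1 higher and 0 lower at an unadjusted p under 0.05 (20% and 18.5% of all genes) and a median of 0.09, the widest differences being Guf1 at -0.34 ± 0.21 and Mtif2 at 0.29 ± 0.10. Of 4 genes for amidation and formylation of mitochondrial tRNA 0 passed limma (2 higher at an unadjusted p under 0.05), a list that includes the route by which mitochondria make charged glutamine tRNA without a glutamine enzyme of their own. Qrsl1 and Gatb, subunits of that amidotransferase, differed by 0.39 ± 0.12 and 0.24 ± 0.08 with all KO livers above all WT livers. Scaled to the bacterial controls, 8 of the 9 factors and all 4 of these genes were higher, as were 8610 of all 18193 genes. Among 5 synthetase relatives outside the list 1 rose (20%), which is near the 21.9% of genes above background. It was Prorsd1, which resembles an editing domain of bacterial proline enzymes (0.41 ± 0.09, limma adjusted p = 0.0132).

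**Figure D4:**
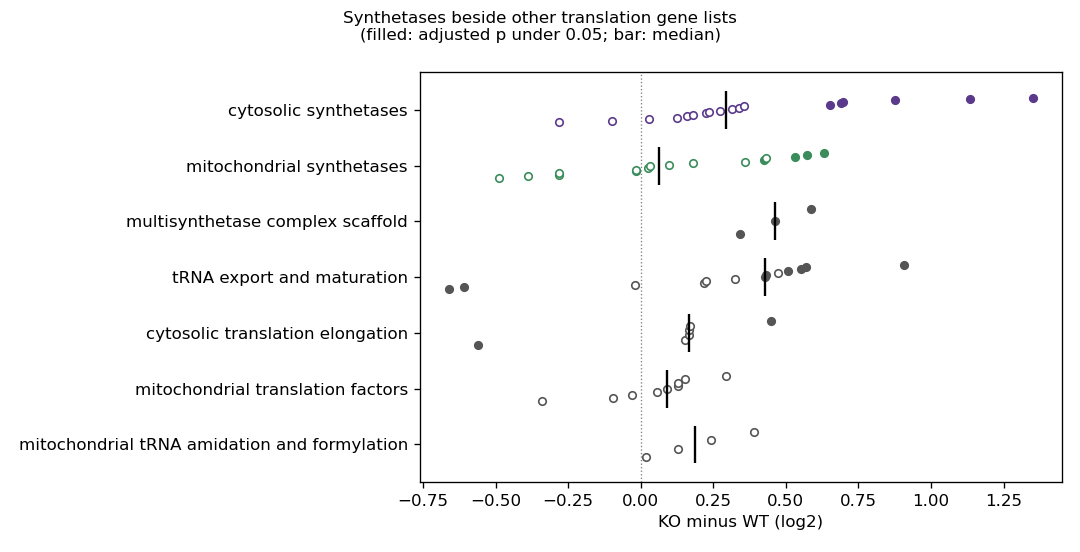
KO minus WT difference (log2) of each gene in the cytosolic and mitochondrial synthetase sets and in 5 lists of neighbouring functions, 1 point per gene, filled where the adjusted p was under 0.05, with the list median as a bar. The medians run from 0.06 for the mitochondrial synthetases to 0.46 for the scaffold of the multisynthetase complex.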

How the data were processed

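The 6 livers were from WT and L-Pex5 knockout mice, 3 each, which the series' design text calls biological replicates. RNA was extracted with Trizol and carried a biotin label, per the labels' protocols. The authors' deposited table holds a log2 value for each probe set, produced by RMA per the submitters' processing notes (version not given in the sources used here). Its values run from 2.15 to 14.9, with array medians of 5.04 to 5.10. Groups and numbers were read from the titles. No batch is labelled and no detection calls were used.

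GEO's platform annotation gives 34945 of 45101 probe sets a single symbol. The test was limma 3.58.1 under R 4.3.3, with lmFit and eBayes, group as the only term, two-sided, over 18193 unfiltered genes at a threshold of 0.05. Pairs of genes were compared with exact permutation tests. Every measured member is named, and from each list up to 4 called genes of largest difference (up to 2 where none was called). The members and lists were chosen with earlier results of these data known. In simulated data with 200 of 18193 genes changed, the fit recovered 28.4% of changes of 0.5, 80.6% of 1 and 95.5% of 2 (log2). In the real data 4363 genes passed, so the adjustment was less strict there and these rates do not carry over directly. Small changes can still be missed. The number of arrays limits the precision. Alternatives were a replicate block, a filter, other scalings, other probe sets, other eBayes options, array weights, a stricter threshold and leaving out each array.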

Additional observations from a re-analysis of the deposited data

How the results depend on the processing

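The 6 cytosolic rises, and those of Iars2 and Yars2, passed under all 17 alternatives. Scaled to the bacterial controls, 16 cytosolic and 11 mitochondrial genes were higher, the medians being 0.68 and 0.45, while over all genes 8610 were higher and 524 lower. With an adjusted p under 0.01, 2 mitochondrial genes were higher, and over all genes 1285 were higher and 732 lower. Mitochondrial genes called lower numbered 2 with the replicate block, 2 with the filter on dim genes, 3 with quantile normalization, 3 with array weights and 4 with the mean of probe sets. Quantile normalization gave medians of 0.21 for cytosolic and -0.0264 for mitochondrial genes. Deviations of same-numbered livers correlated at 0.105, -0.018 and 0.105, and only the livers numbered 3 matched each other best. These low correlations cannot exclude that the livers were paired by number. The block changed no cytosolic call, while Cars2 and Nars2 passed as lower and Mars2, below background, as higher.

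Leaving out each array in turn gave 6 to 7 cytosolic genes higher, 2 to 4 mitochondrial genes higher and 0 to 1 lower, and over all genes 1497 to 2424 higher and 888 to 1679 lower. The medians ran from 0.25 to 0.36 (cytosolic) and from -0.00945 to 0.187 (mitochondrial).

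Genes without a call changed sign as follows. Quantile normalization gave -0.0798 for Hars, -0.102 for Hars2, -0.0358 for Lars2 and -0.0171 for Pars2. Centring on the median gave 0.0236 for Fars2 and 0.022 for Vars2. Centring on the bacterial controls gave 0.29 for Qars, 0.10 for Tars, 0.11 for Aars2, 0.11 for Sars2, 0.37 for Fars2 and 0.37 for Vars2. The mean of probe sets gave 0.34 for Fars2 and -0.0192 for Lars2, and array weights 0.012 for Fars2 and -0.00276 for Hars2. With arrays left out, Hars2 ran from -0.054 to 0.0744, Pars2 from -0.0789 to 0.194, Vars2 from -0.0589 to 0.0119, Fars2 from -0.0578 to 0.00957, Lars2 from -0.0648 to 0.181 and Tars from -0.464 to 0.0505. The causes were not tested.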
